A study of Mus musculus with 9 samples.

Results

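The coenzyme Q synthesis genes were taken as 10 mouse genes matched by symbol: Pdss1, Pdss2, Coq2, Coq3, Coq4, Coq5, Coq6, Coq7, Coq8a and Coq9. All 10 were matched to an Ensembl identifier among the 37310 gene rows of each count file, and all 10 were among the 16224 genes that passed the filter on low counts. The cells were mouse embryonic stem cells of the E14 parental line, grown without feeder cells in serum and LIF and sequenced as bulk RNA after removal of ribosomal RNA. Groups are named as follows. The Zbtb11 KO group had Zbtb11lox/lox alleles and ERt2-Cre at the Rosa26 locus and received 250 nM of 4-hydroxytamoxifen (4OHT), which switches on ERt2-Cre, for 72 h. The 4OHT control had unmodified alleles at both loci (Zbtb11WT/WT and Rosa26 WT) and received the same dose for the same time. The EtOH control had the floxed alleles and ERt2-Cre and received ethanol, the carrier, for 72 h. Each group held 3 libraries, and the carrier ethanol was present in all of them. The group labelled Zbtb11 KO is called the KO-labelled libraries below. They differ from the EtOH control by 4OHT with its induced recombination, and from the 4OHT control by both loci. The 4OHT control differs from the EtOH control by line and by drug, and these cannot be told apart. Whether replicates are separate cultures is not stated, and p-values therefore reflect only the variation among these libraries, which may be technical. In bulk RNA, fewer cells of a type and less RNA per cell cannot be told apart.

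Coenzyme Q, or ubiquinone, is a lipid of the inner mitochondrial membrane that carries electrons from several dehydrogenases to respiratory complex III. It is built from a benzoquinone ring and a long isoprenoid tail. Pdss1 and Pdss2 together form the synthase that lengthens the tail from farnesyl diphosphate, a product of the mevalonate pathway, and Coq2 joins the tail to the ring precursor 4-hydroxybenzoate. The ring is then hydroxylated, methylated and decarboxylated by enzymes that gather in an assembly on the matrix face of the inner membrane. In it, Coq3 is the O-methyltransferase, Coq5 the C-methyltransferase, and Coq6 and Coq7 are hydroxylases. Coq9 binds lipid and partners Coq7, Coq4 is needed for the assembly and has been tied in human cells to ring decarboxylation, and Coq8a is an atypical kinase-like ATPase that promotes the pathway.

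Before the genes themselves, the libraries were checked. Zbtb11, a gene for a BTB-type zinc finger factor, had 369, 386 and 376 scaled read counts (CPM, after TMM scaling to library size) in the KO-labelled libraries, against 364, 378 and 361 in the 4OHT control and 348, 359 and 360 in the EtOH control. Summed over the gene, counts were thus no lower in the KO-labelled libraries, and the log2 fold change against the EtOH control was 0.09 (edgeR adjusted p = 0.17; 0.032 with the replicate number as a block). Which exons were deleted is not stated in the sources used here, and a transcript can persist after part of a gene is removed, so it is no check of the labels or of protein loss. Gene counts summed to 18856863 to 22325943 per library in the KO-labelled group, 17457038 to 21441306 in the 4OHT control and 16909139 to 23544893 in the EtOH control. Reads that fell in no annotated feature made up 32.7% to 33.8% in the KO-labelled libraries, 26.7% to 27.5% in the 4OHT control and 26.4% to 28.7% in the EtOH control. This share moved with the KO-labelled group, and its part in the results below was not tested. All 8 embryonic stem cell markers were detected in every library, with summed levels of 3760 to 4080, 4090 to 4660 and 3930 to 4120 CPM in the KO-labelled, 4OHT control and EtOH control libraries; 1 of them, Esrrb, fell against the EtOH control and 4 fell against the 4OHT control. With the replicate block described under Coq2, 2 fell (Esrrb and Pou5f1) and 1 rose (Klf4) against the EtOH control. Against the 4OHT control 6 fell and 1 rose (Nanog) with the block. The 4OHT control was itself called higher than the EtOH control for 3 of the 8 (Zfp42, Klf4 and Dppa5a) and lower for none. With the block it was called higher for 5 and lower for 1. The 10 markers of other cells summed to 38.7 to 41.6, 33.8 to 40.9 and 34.8 to 41.8 CPM in the same order of groups. Pax6, a neural marker, made up a large part of these sums, with means of 16.2, 20.5 and 17.6 CPM. The sums therefore do not show shifts of the lower markers. Of the 10, 8 were tested and 4 stayed under 1 CPM in all libraries. The endoderm markers Gata6 and Sox17 were higher in the KO-labelled libraries, with means of 3.63 and 0.74 CPM against 1.58 and 0.358 CPM in the EtOH control, and were the 2 markers of other cells called there (3 with the replicate block). Of the 8 tested, 4 rose and 2 fell against the 4OHT control. In the 4OHT control against the EtOH control 1 rose and 2 fell (3 and 2 with the replicate block). The collagen genes Col1a1 and Col1a2, which mark fibroblasts, were the 2 that fell. Their means were 4.81 and 0.648 CPM in the 4OHT control against 8.11 and 2.71 CPM in the EtOH control (edgeR adjusted p = 0.00052 and 3.4e-05). Thy1, taken here as a marker of the same cells, was the 1 that rose. Its means were 8.79 CPM in the 4OHT control against 6.2 CPM in the EtOH control (edgeR adjusted p = 0.0069). Shares over all genes tested can be set beside the counts of both kinds of marker. In either direction, 27.2% were called against the EtOH control, 38.9% against the 4OHT control and 18.4% between the controls. With the replicate block these shares were 42.8%, 51.4% and 32.8%. The part of these markers in the results was not tested.

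Of the 10 genes, 5 fell in the KO-labelled libraries against the EtOH control: Coq3, Pdss2, Pdss1, Coq9 and Coq5. Coq3 fell 3.9-fold, and the other falls were between 1.16-fold and 1.38-fold. None of the 10 rose. Over all 16224 genes, 14.2% were called lower, 13% higher and 27.2% in either direction in the same comparison, at an edgeR adjusted p under 0.05. The median log2 fold change was -0.19 over the 10 genes and 0.01 over all genes tested. With the replicate number as a block 6 of the 10 fell, Coq2 being added. With it, 3625 of all 16224 genes were called lower, and 42.8% were called in either direction. Without the block, leaving out EtOH control replicate 2, or KO-labelled replicate 1, left 3 calls among the 10. Over all genes, 3067 and 3111 were then called in either direction, in the same order, beside 4417 with all libraries. Against the 4OHT control, 4 of the 10 fell (Coq3, Coq9, Pdss1 and Pdss2) and 2 rose (Coq6 and Coq8a), beside 19.8% of all genes called lower and 19.1% called higher. The median log2 fold changes in that comparison were -0.13 for the 10 genes and 0.02 for all genes tested. These comparisons share the KO-labelled libraries, so they are not independent of each other. No test of the list was made.

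**Figure D1:**
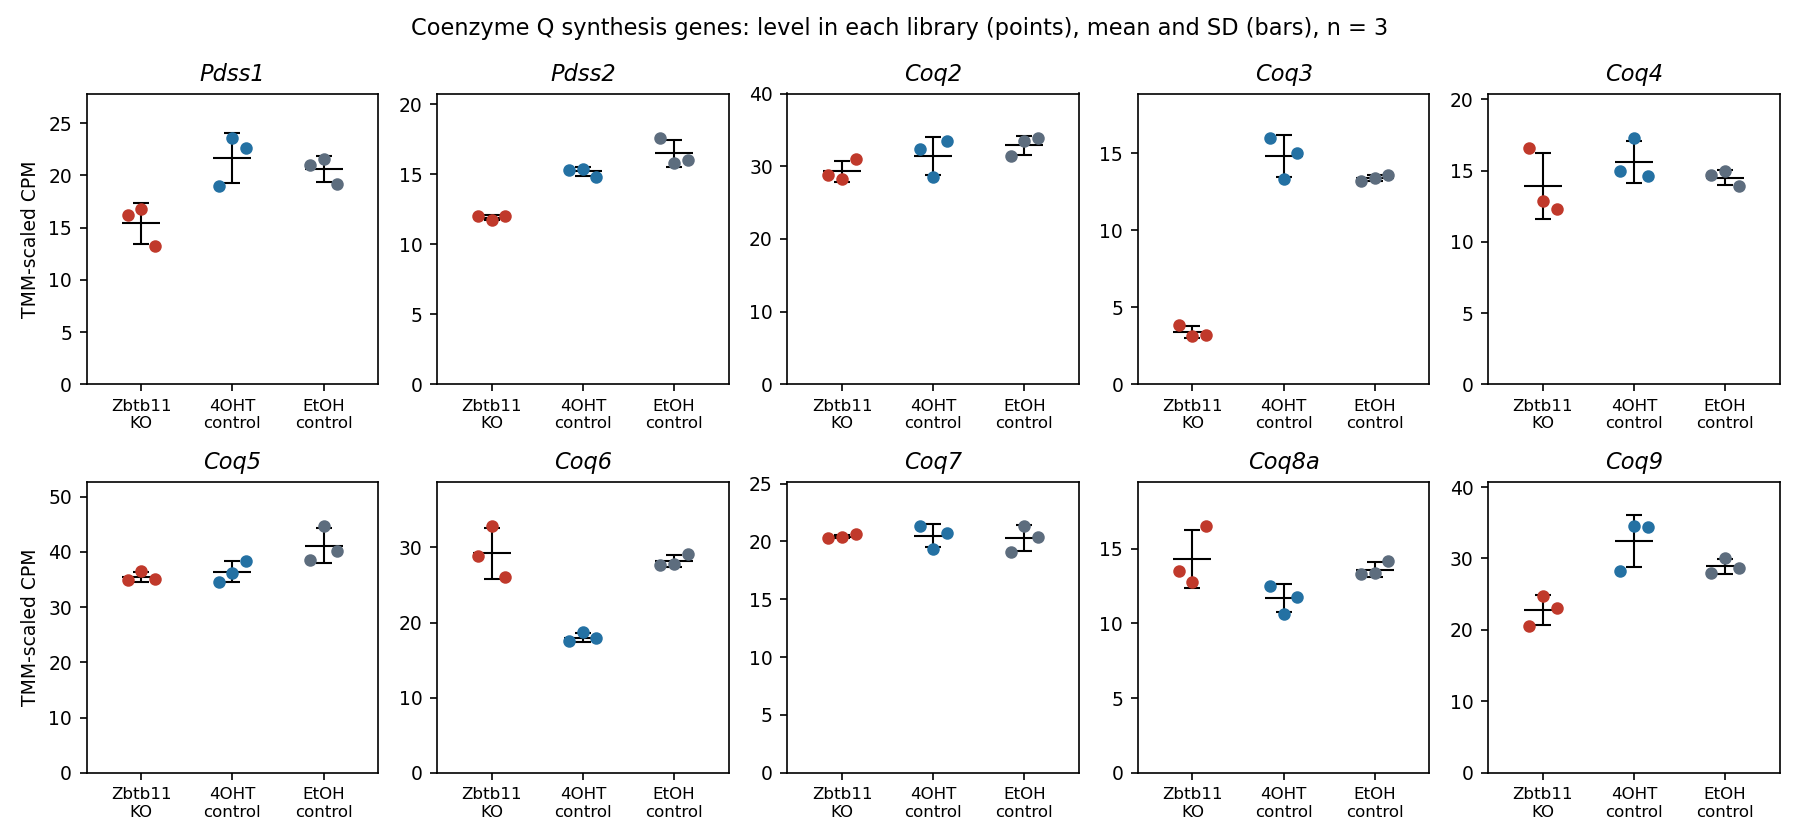
Level of each of the 10 coenzyme Q synthesis genes in TMM-scaled CPM (y axis, from 0) in every library, by group (x axis); points are libraries, bars the mean and SD of 3 libraries. Coq3 sits between 3.16 and 3.86 CPM in the KO-labelled libraries, below all 6 control libraries, which sit at 13.2 CPM or more, while Coq6 is set apart in the 4OHT control.

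Sequences just before and after the annotated starts are shown for the genes called lower against each control (Coq3, Pdss1, Pdss2 and Coq9), and for Coq6, which was set apart in the 4OHT control. They come from RefSeq on GRCm38.p6 and were not read from these cells; the count files were made on mm9, so the coordinates are of the RefSeq build. Each stretch runs from 250 bases before the annotated start to 30 bases after it, on the plus strand and 5′ to 3′. Of the 10 genes, 9 had such a window in the table used, and Coq3 and Coq8a had 2 each. Capitals mark matches, on either strand, to an ETS core (CCGGAAG), an NRF1 motif (the capitals of the Coq3 window 2 match or of its other strand, with any base at the central variable position) or a YY1 motif (the capitals of the Coq9 stretch). No match of one motif overlapped that of another here.
Coq3, window 1, chr4:21879396-21879675: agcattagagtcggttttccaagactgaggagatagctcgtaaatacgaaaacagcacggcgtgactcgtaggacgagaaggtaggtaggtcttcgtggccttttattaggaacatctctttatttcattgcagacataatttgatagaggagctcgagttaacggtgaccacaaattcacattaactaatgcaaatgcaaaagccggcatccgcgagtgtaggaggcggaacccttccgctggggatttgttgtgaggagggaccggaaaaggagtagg
Pdss1, chr2:22895272-22895551: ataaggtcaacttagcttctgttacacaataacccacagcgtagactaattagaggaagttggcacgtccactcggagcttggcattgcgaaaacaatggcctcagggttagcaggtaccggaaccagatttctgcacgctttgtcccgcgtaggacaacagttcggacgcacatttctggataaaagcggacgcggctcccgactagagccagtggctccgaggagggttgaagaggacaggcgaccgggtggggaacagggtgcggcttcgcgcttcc
Pdss2, chr10:43221236-43221515: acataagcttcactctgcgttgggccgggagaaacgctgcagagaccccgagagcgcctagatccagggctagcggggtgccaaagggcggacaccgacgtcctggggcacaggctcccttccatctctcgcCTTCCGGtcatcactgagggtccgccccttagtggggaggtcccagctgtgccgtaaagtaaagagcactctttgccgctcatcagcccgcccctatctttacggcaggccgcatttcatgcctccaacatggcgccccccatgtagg
Coq9, chr8:94838163-94838442: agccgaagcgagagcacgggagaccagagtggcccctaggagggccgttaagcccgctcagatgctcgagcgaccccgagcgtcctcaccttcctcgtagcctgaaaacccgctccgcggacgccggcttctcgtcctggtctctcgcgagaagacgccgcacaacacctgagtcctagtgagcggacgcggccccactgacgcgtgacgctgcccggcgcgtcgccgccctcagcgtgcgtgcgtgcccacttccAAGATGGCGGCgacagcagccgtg
Coq6, chr12:84361718-84361997: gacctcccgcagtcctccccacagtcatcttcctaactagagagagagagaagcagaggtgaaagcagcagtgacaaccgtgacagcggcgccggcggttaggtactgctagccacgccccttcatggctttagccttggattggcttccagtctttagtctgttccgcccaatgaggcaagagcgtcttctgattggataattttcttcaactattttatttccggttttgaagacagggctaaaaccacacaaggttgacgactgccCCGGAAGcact
Coq3, NRF1 match in window 2, chr4:21879843-21879872: gggcggctctGCGCAAGCGCggcagagagc
Pdss1, ETS match across the end of the stretch, chr2:22895537-22895566: cggcttcgcgCTTCCGGtgcccagcttccg
The ETS core stood in the windows of 3 genes (Pdss1, Pdss2 and Coq6), of which Pdss1 held 2, and in 8.86% of all 32851 windows of the table. The NRF1 letters stood in the second Coq3 window, and in 4.6% of all windows. The YY1 letters stood in the Coq9 window, and in 0.633% of all windows. No single motif of the 3 was common to the 4 genes called lower against each control. A match describes letters and not a bound site, and the motifs were chosen with the results known.

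The tail synthase subunits both fell in the KO-labelled libraries. Pdss1 (ENSMUSG00000026784.8, chromosome 2) had 16.2, 16.8 and 13.2 CPM in the KO-labelled libraries, 19.0, 23.6 and 22.6 CPM in the 4OHT control and 21.0, 21.6 and 19.2 CPM in the EtOH control. Every KO-labelled library was below every control library. The log2 fold change was -0.42 ± 0.11 (SE; 95% interval -0.64 to -0.20; edgeR adjusted p = 0.008) against the EtOH control, a 1.34-fold fall. Against the 4OHT control it was -0.49 ± 0.11 (SE; edgeR adjusted p = 0.0017). The controls did not pass the test against each other, with a log2 difference of 0.07 and an interval of -0.15 to 0.29 (edgeR adjusted p = 0.70).

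Pdss2 (ENSMUSG00000038240.7, chromosome 10), the partner subunit, had 12, 11.7 and 12 CPM in the KO-labelled libraries, against 15.3, 15.4 and 14.8 CPM in the 4OHT control and 17.6, 15.8 and 16.0 CPM in the EtOH control. The 3 groups held separate ranges, with the KO-labelled libraries lowest. The log2 fold change was -0.47 ± 0.09 (SE; edgeR adjusted p = 0.00085) against the EtOH control, a 1.38-fold fall, and -0.35 ± 0.09 (SE; edgeR adjusted p = 0.0045) against the 4OHT control. The 4OHT control did not pass the test against the EtOH control (log2 fold change -0.12, interval -0.30 to 0.06; edgeR adjusted p = 0.37). Both subunits of the enzyme thus fell against each control.

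Coq2 (ENSMUSG00000029319.7, chromosome 5), the prenyltransferase that joins tail and ring, did not pass the main test in any comparison. Its levels were 28.8, 28.2 and 31.0 CPM in the KO-labelled libraries, 32.4, 28.5 and 33.4 CPM in the 4OHT control and 31.4, 33.5 and 33.9 CPM in the EtOH control. The KO-labelled libraries lay below the EtOH control without overlap, though by a narrow margin, and overlapped the 4OHT control. The log2 fold change against the EtOH control was -0.17 ± 0.07 (SE; interval -0.33 to -0.01; edgeR adjusted p = 0.11). With the replicate number as a block, which pairs same-numbered libraries, this value passed the test (edgeR adjusted p = 0.025).

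Coq3 (ENSMUSG00000028247.2, chromosome 4), the O-methyltransferase of the ring, carried by far the steepest fall of the 10. It had 91, 65 and 62 counts in the KO-labelled libraries, against 338, 227 and 313 in the 4OHT control and 290, 307 and 227 in the EtOH control. In CPM these were 3.86, 3.16 and 3.22 in the KO-labelled libraries, 16, 13.3 and 15 in the 4OHT control and 13.2, 13.4 and 13.6 in the EtOH control. The highest KO-labelled library was thus far below the lowest control library, and the controls overlapped each other. The mean was 3.42 ± 0.388 CPM in the KO-labelled libraries, 14.8 ± 1.36 CPM in the 4OHT control and 13.4 ± 0.186 CPM in the EtOH control (SD, n = 3 each). The log2 fold change was -1.96 ± 0.12 (SE; interval -2.22 to -1.71; edgeR adjusted p = 5e-09) against the EtOH control, a 3.9-fold fall. Against the 4OHT control it was -2.11 ± 0.12 (SE; interval -2.36 to -1.86; edgeR adjusted p = 1.3e-09), a 4.32-fold fall. Between the controls the log2 difference was 0.15 (interval -0.07 to 0.36; edgeR adjusted p = 0.36). Set among all genes tested, 77 genes including Coq3 (0.475%) had a log2 fold change at least this low against the EtOH control, and 100 (0.616%) against the 4OHT control. The annotation placed no exon of another gene over Coq3, and no other transcript met the limits for a near-identical copy (at least 95% identity over at least 200 bases).

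The 3 genes outside the list whose log2 CPM followed Coq3 most closely over the 9 libraries, among 10867 genes compared, were Wdr11, Pex3 and Dpy19l4. Their Pearson correlations with Coq3 were 0.997, 0.9968 and 0.9964, given as a description with no p. Wdr11, a WD repeat protein, ranged over 6.32 to 8.49 CPM in the KO-labelled libraries, 63.6 to 67.1 CPM in the 4OHT control and 56.5 to 58.0 CPM in the EtOH control. Pex3, which acts in assembly of the peroxisome membrane, ranged over 0.884 to 1.53, 13.5 to 16.3 and 12.1 to 14.2 CPM in the same groups. For Dpy19l4 the ranges were 6.81 to 8.49, 36.3 to 38.1 and 33.1 to 37.6 CPM. All 3 were lower in every KO-labelled library than in any control library, with log2 fold changes of -2.91, -3.50 and -2.25 against the EtOH control. In these genes the KO-labelled libraries and the controls form separate clusters, so the correlations describe the gap between groups together with any variation within them.

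Of the other ring enzymes, Coq5 fell against the EtOH control, and Coq6 and Coq7 did not pass that test. Coq5 (ENSMUSG00000041733.4, chromosome 5), the C-methyltransferase, had 34.8, 36.5 and 35.0 CPM in the KO-labelled libraries, 34.6, 36.2 and 38.4 CPM in the 4OHT control and 38.6, 44.6 and 40.1 CPM in the EtOH control. The KO-labelled libraries overlapped the 4OHT control, and the EtOH control was above both. Coq5 fell 1.16-fold against the EtOH control (log2 fold change -0.21 ± 0.07, SE; edgeR adjusted p = 0.031), but the difference from the 4OHT control was -0.04 (interval -0.19 to 0.11; edgeR adjusted p = 0.69). The call against the EtOH control was lost without EtOH control replicate 2 (log2 fold change -0.15, edgeR adjusted p = 0.16), without EtOH control replicate 3, without KO-labelled replicate 1 or 3, and with library totals in place of TMM scaling (log2 fold change -0.14, edgeR adjusted p = 0.13). Between the controls the log2 fold change of Coq5 was -0.18 (edgeR adjusted p = 0.095), which passed the test with the replicate block (edgeR adjusted p = 0.018).

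Coq7 (ENSMUSG00000030652.4, chromosome 7), the di-iron hydroxylase of a late ring step, had the smallest log2 difference of the 10 in each of the 3 comparisons. It had 20.3, 20.4 and 20.6 CPM in the KO-labelled libraries, 21.3, 19.3 and 20.7 CPM in the 4OHT control and 19.1, 21.3 and 20.4 CPM in the EtOH control. All 3 groups overlapped. The log2 difference between KO-labelled and EtOH control libraries was 0.01 with an interval of -0.15 to 0.17 (edgeR adjusted p = 0.94), and that from the 4OHT control was 0.00 with an interval of -0.17 to 0.16 (edgeR adjusted p = 0.98).

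Coq6 (ENSMUSG00000021235.7, chromosome 12), the flavin-dependent ring hydroxylase, was lowest in the 4OHT control. Its levels were 28.8, 32.8 and 26.1 CPM in the KO-labelled libraries, 17.6, 18.7 and 17.9 CPM in the 4OHT control and 27.7, 27.8 and 29.1 CPM in the EtOH control. The 4OHT control lay apart below both groups of floxed cells, which overlapped each other. Against the 4OHT control Coq6 was 1.62-fold higher in the KO-labelled libraries (log2 fold change 0.70 ± 0.08, SE; edgeR adjusted p = 1e-05). In the 4OHT control it was 1.56-fold lower than in the EtOH control (log2 fold change -0.64 ± 0.09, SE; edgeR adjusted p = 6.8e-05). Coq6 was the single gene of the 10 called between the controls, beside 18.4% of all genes called there in either direction, 8.75% called lower and 9.66% called higher. Against the EtOH control the KO-labelled libraries differed by 0.05 (interval -0.12 to 0.23; edgeR adjusted p = 0.67). With the replicate block, 3 of the 10 genes were called between the controls, Coq5 and Coq9 being added to Coq6, beside 32.8% of all genes called with the block.

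**Figure D2:**
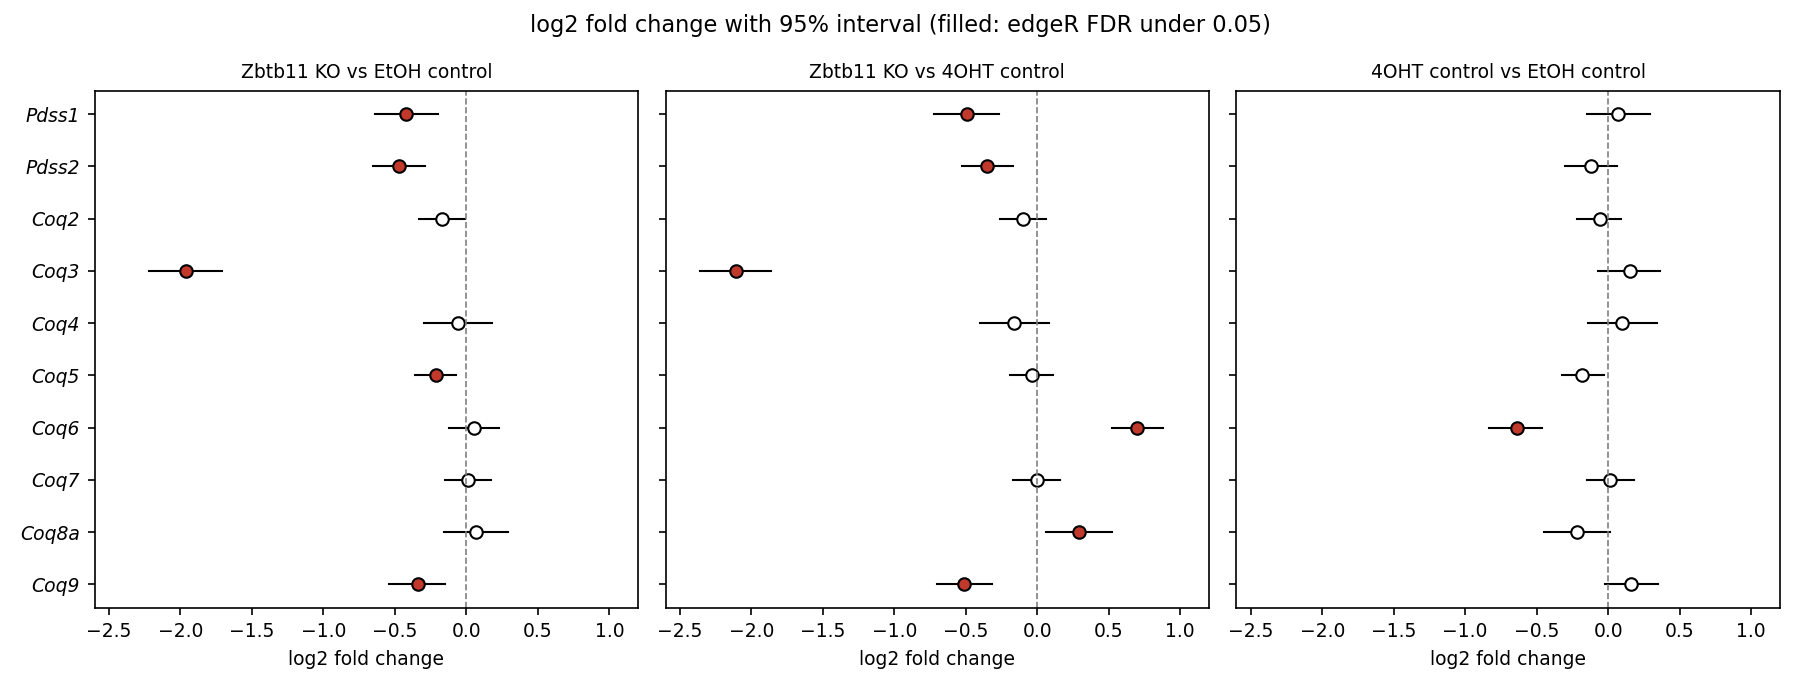
Log2 fold change (x axis) of each coenzyme Q synthesis gene (y axis) in the 3 comparisons, with its 95% interval; filled points have an edgeR adjusted p under 0.05. Coq3 lies near -2 in both comparisons of the KO-labelled libraries and near 0 between the controls, whereas Coq6 is called in both comparisons that involve the 4OHT control.

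Coq9 fell against each control. Coq9 (ENSMUSG00000031782.8, chromosome 8), the lipid-binding partner of Coq7, had 20.5, 24.7 and 23.1 CPM in the KO-labelled libraries, 28.2, 34.5 and 34.4 CPM in the 4OHT control and 27.9, 30 and 28.7 CPM in the EtOH control. No KO-labelled library reached any control library, and the controls overlapped. The log2 fold change was -0.34 ± 0.09 (SE; interval -0.54 to -0.15; edgeR adjusted p = 0.011) against the EtOH control, a 1.27-fold fall. It was -0.51 ± 0.09 (SE; edgeR adjusted p = 0.00037) against the 4OHT control, a 1.42-fold fall. The call against the EtOH control narrowly failed without EtOH control replicate 2 (edgeR adjusted p = 0.052) and without KO-labelled replicate 1 (edgeR adjusted p = 0.057). Between the controls Coq9 was 0.16 log2 units higher in the 4OHT control (edgeR adjusted p = 0.23), which passed with the replicate block (edgeR adjusted p = 0.045).

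Coq4 and Coq8a stood differently. Coq4 (ENSMUSG00000026798.3, chromosome 2) had 16.6, 12.9 and 12.3 CPM in the KO-labelled libraries, 15, 17.3 and 14.6 CPM in the 4OHT control and 14.7, 15 and 13.9 CPM in the EtOH control. KO-labelled replicate 1 lay above the other libraries of its group, and the 3 groups overlapped. The log2 difference from the EtOH control was -0.06 (interval -0.30 to 0.18; edgeR adjusted p = 0.74). From the 4OHT control it was -0.16 (interval -0.40 to 0.08; edgeR adjusted p = 0.30), and without KO-labelled replicate 1 it became -0.31 and passed the test (edgeR adjusted p = 0.041).

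Coq8a (ENSMUSG00000026489.7, chromosome 1) had 13.5, 12.8 and 16.5 CPM in the KO-labelled libraries, 12.5, 10.6 and 11.8 CPM in the 4OHT control and 13.3, 13.4 and 14.2 CPM in the EtOH control. The KO-labelled libraries overlapped the EtOH control and lay just above the 4OHT control. Coq8a was 1.22-fold higher in the KO-labelled libraries than in the 4OHT control (log2 fold change 0.29 ± 0.11, SE; edgeR adjusted p = 0.047). This call was lost in 11 of 16 alternatives, among them each of the EtOH control replicates left out in turn, and over the 16 the edgeR or DESeq2 adjusted p lay between 0.0085 and 0.22. Against the EtOH control the difference was 0.07 (interval -0.16 to 0.29; edgeR adjusted p = 0.68).

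Levels of the genes were compared with each other only after division by the length of the annotated exons, as CPM per kb. In the EtOH control the order was Coq5 (13.5 ± 1.03), Coq2 (12.6 ± 0.499), Coq9 (9.45 ± 0.353), Coq6 (8.98 ± 0.247), Pdss1 (4.85 ± 0.297), Coq3 (4.47 ± 0.062), Coq4 (4.28 ± 0.16), Coq7 (3.15 ± 0.174), Pdss2 (2.76 ± 0.162) and Coq8a (2.57 ± 0.0908; CPM per kb, SD, n = 3). Neighbours whose ranges overlapped in that group were Coq5 and Coq2, Coq9 and Coq6, Pdss1 and Coq3, and Pdss2 and Coq8a. Coq3 ranked 6 of 10 in both controls and 10 of 10 in the KO-labelled libraries, where it averaged 1.14 ± 0.129 CPM per kb and its range did not overlap that of Pdss2, the next above it (2.00 ± 0.0326). In the 4OHT control Coq6 averaged 5.74 ± 0.18 CPM per kb, against 8.98 ± 0.247 in the EtOH control, and ranked 4 in both. Exon lengths came from a newer annotation than the counts, so levels of different genes are approximate.

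**Figure D3:**
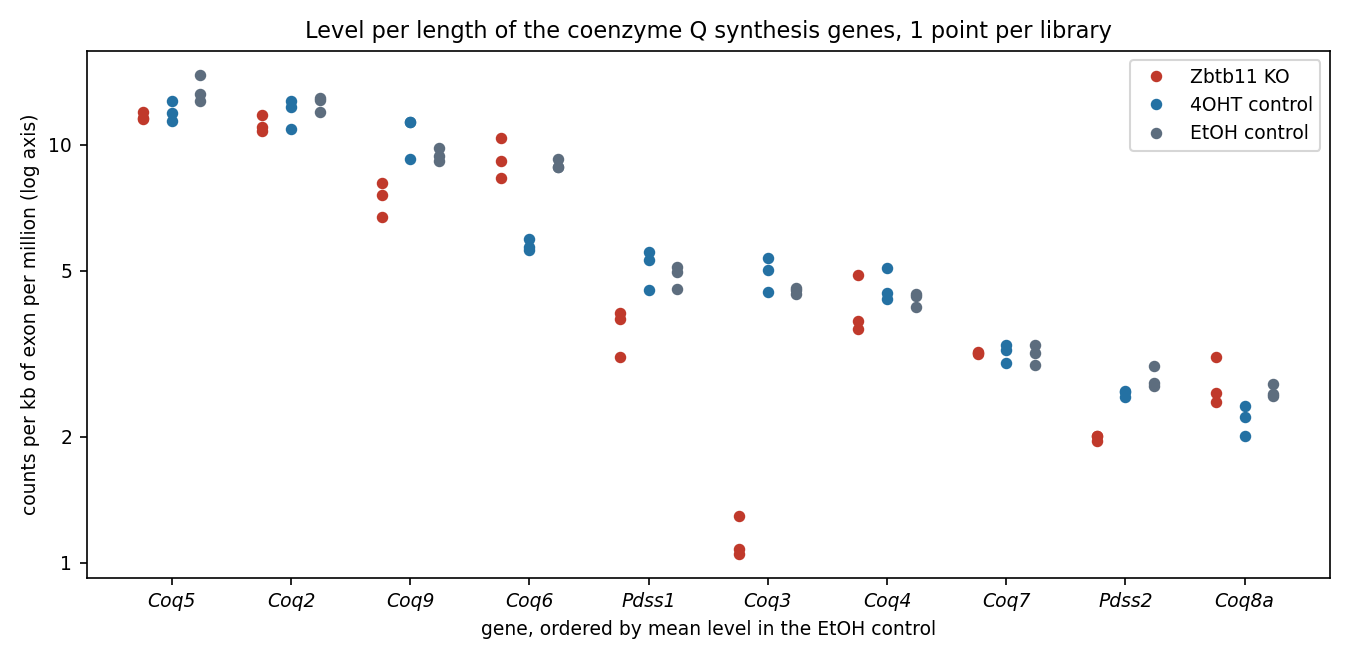
CPM per kb of exon (y axis, log scale) of the 10 genes, ordered along the x axis by mean level in the EtOH control, with 1 point per library and a colour per group. Coq3 drops from the middle of the order in both controls to the lowest place in the KO-labelled libraries.

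Several of these genes share sequence with a gene on the opposite strand. Since the sources used here do not state whether counting used strand, for such pairs reads of the partners may not have been told apart. Coq4 overlaps Trub2, a mitochondrial pseudouridine synthase gene, by 921 bases of exon. Trub2 had 10.9, 12.6 and 12.4 CPM in the KO-labelled libraries, 54.5, 54.9 and 51.6 CPM in the 4OHT control and 44.6, 45.2 and 45.8 CPM in the EtOH control. The KO-labelled libraries were thus far below both controls, with log2 fold changes of -1.92 ± 0.07 (SE; edgeR adjusted p = 9.7e-12) against the EtOH control and -2.17 ± 0.07 (SE; edgeR adjusted p = 1.7e-12) against the 4OHT control. Coq4 showed no such drop in the same libraries. Trub2 and the other overlapping genes described here were picked for their position and are outside the rule for named genes; they were added after values had been seen.

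The outermost annotated starts of Coq6 and Fam161b lie 176 bases apart on opposite strands; the genes overlap there and share 128 bases of exon. Fam161b had 7.09, 6.71 and 6.45 CPM in the KO-labelled libraries, 3.08, 2.58 and 3.12 CPM in the 4OHT control and 5.10, 4.68 and 3.65 CPM in the EtOH control. The 4OHT control was lowest for this gene, as it was for Coq6, but the KO-labelled libraries were also above the EtOH control (log2 fold change 0.58; edgeR adjusted p = 0.0073). In the 4OHT control Fam161b was lower than in the EtOH control by a log2 fold change of -0.61 ± 0.16 (SE; edgeR adjusted p = 0.014), beside -0.64 for Coq6.

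**Figure D4:**
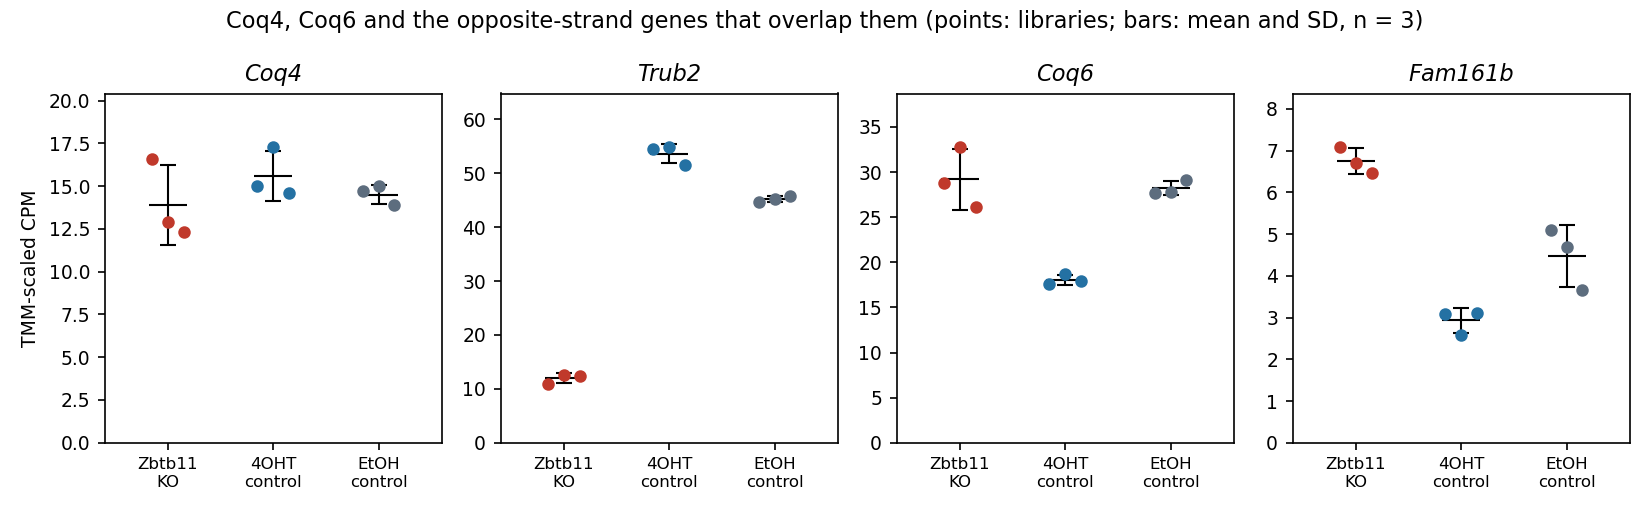
TMM-scaled CPM (y axis, from 0, scaled per gene) of Coq4 with Trub2 and of Coq6 with Fam161b in each library, by group (x axis); bars are the mean and SD of 3 libraries. Trub2 sits at 10.9 to 12.6 CPM in the KO-labelled libraries while Coq4 overlaps between all groups, and Coq6 and Fam161b are both lowest in the 4OHT control.

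For Pdss1, Coq9 and Coq8a the opposite-strand overlaps were with Abi1 (194 bases), Ciapin1 (38 bases) and Cdc42bpa (366 bases). Abi1 was higher in the KO-labelled libraries, with log2 fold changes of 0.16 against the EtOH control and 0.24 against the 4OHT control (edgeR adjusted p = 0.036 and 0.0026), while Pdss1 fell. Ciapin1, whose outermost start lies 37 bases from that of Coq9, averaged 101 CPM in the KO-labelled libraries, 136 CPM in the 4OHT control and 106 CPM in the EtOH control, and did not pass the test against the EtOH control (log2 fold change -0.07; edgeR adjusted p = 0.44). It fell against the 4OHT control, as Coq9 did (log2 fold change -0.43; edgeR adjusted p = 0.00011), and was higher in the 4OHT control than in the EtOH control (0.36; edgeR adjusted p = 0.0014). Cdc42bpa did not pass either test of the KO-labelled libraries, with log2 fold changes of -0.05 against the EtOH control and 0.11 against the 4OHT control (edgeR adjusted p = 0.63 and 0.25). Pdss1 also shares 207 bases of exon with A130006I12Rik, a pseudogene on the opposite strand, so part of the Pdss1 count is uncertain. Their transcripts aligned at 96.3% identity over 215 bases, and whether this is the shared stretch itself was not tested. No exon of another gene lay over Coq2, Coq5 or Coq7.

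Genes around the pathway were counted in 4 lists, in full. Of 8 accessory genes, 2 fell in the KO-labelled libraries against the EtOH control and none rose, beside 14.2% of all genes called lower and 13% higher. Hpdl, which in human cells helps to make the 4-hydroxybenzoate ring precursor, had 6.32, 7.88 and 6.19 CPM in the KO-labelled libraries, 8.16, 8.99 and 7.64 CPM in the 4OHT control and 10.9, 11.7 and 12.6 CPM in the EtOH control. The EtOH control was above both groups that received 4OHT, with a log2 fold change of -0.79 ± 0.12 (SE; edgeR adjusted p = 0.00022) for the KO-labelled libraries and -0.51 (edgeR adjusted p = 0.0075) for the 4OHT control. Between the KO-labelled libraries and the 4OHT control the value was -0.28 (edgeR adjusted p = 0.092; 0.033 with the replicate block). Stard7, a lipid transfer protein that has been tied to coenzyme Q distribution, fell to 51.5 ± 3.38 CPM in the KO-labelled libraries, against 69.3 ± 6.09 CPM in the 4OHT control and 64.1 ± 1.75 CPM in the EtOH control (SD, n = 3 each). Its log2 fold change was -0.32 against the EtOH control (edgeR adjusted p = 0.0033) and -0.43 against the 4OHT control (edgeR adjusted p = 0.00017). The other 6 did not pass the main test of the KO-labelled libraries against either control. They were Coq8b, a paralogue of Coq8a, the coenzyme Q-binding genes Coq10a and Coq10b, the mitochondrial phosphatase gene Pptc7, and Fdx2 and Fdxr, a ferredoxin and its reductase that supply electrons to Coq6. Coq8b, the paralogue, had a log2 fold change of -0.09 against the EtOH control (edgeR adjusted p = 0.50). Fdx2 had -0.20 (edgeR adjusted p = 0.11; 0.034 with the replicate block).

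Upstream, 7 of 8 genes of the mevalonate pathway were matched and tested, and Hmgcs1 was not analysed here. Of these 7, 2 fell against the EtOH control and 4 against the 4OHT control, and none rose in either comparison. Among all genes tested, 14.2% and 19.8% were called lower in these 2 comparisons. Fdps, the farnesyl diphosphate synthase that supplies the tail, fell to 64.1 ± 8.53 CPM in the KO-labelled libraries, against 82.8 ± 8.31 CPM in the 4OHT control and 85.5 ± 9.29 CPM in the EtOH control (SD, n = 3 each). Its log2 fold change was -0.42 ± 0.11 (SE; edgeR adjusted p = 0.017) against the EtOH control and -0.37 (edgeR adjusted p = 0.021) against the 4OHT control. Mvd, the decarboxylase of the pathway, fell to 21.2 ± 0.387 CPM in the KO-labelled libraries, against 26.0 ± 1.43 CPM in the 4OHT control and 27.3 ± 0.781 CPM in the EtOH control (SD, n = 3 each; edgeR adjusted p = 0.0043 against the 4OHT control and 0.0015 against the EtOH control). Idi1 and Mvk passed against the 4OHT control, with log2 fold changes of -0.35 and -0.31 (edgeR adjusted p = 0.017 and 0.025), but not against the EtOH control (edgeR adjusted p = 0.10 and 0.12; 0.024 and 0.029 with the replicate block). The count of 2 against the EtOH control was 6 with the replicate block. With it, 3625 of all 16224 genes were called lower, and 42.8% were called in either direction. Without the block, the mevalonate count was 4 without EtOH control replicate 1, and 1 without EtOH control replicate 2 or 3. Over all genes, 3770, 3067 and 3453 were called without EtOH control replicates 1, 2 and 3, beside 4417 with all libraries.

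Farnesyl diphosphate also feeds sterols, dolichol, heme a and protein prenylation. Of 7 genes at these branches, 4 fell in the KO-labelled libraries against the EtOH control, beside 14.2% of all genes called lower. Against the 4OHT control 4 fell, beside 19.8% of all genes, and none of the 7 rose in either comparison. Fntb, the farnesyltransferase beta subunit, averaged 52.7 CPM in the KO-labelled libraries, 69.5 CPM in the 4OHT control and 65.0 CPM in the EtOH control (log2 fold change -0.40 against the 4OHT control and -0.30 against the EtOH control, edgeR adjusted p = 0.00018 and 0.003). Fdft1, the squalene synthase, fell against the EtOH control (log2 fold change -0.26, edgeR adjusted p = 0.0045), and its value against the 4OHT control was -0.10 (edgeR adjusted p = 0.23). Nus1, of the dolichol branch, and Cox10, which farnesylates heme, fell by 0.22 and 0.18 log2 units against the EtOH control (edgeR adjusted p = 0.0044 and 0.041). Fnta, the alpha subunit shared by the protein prenyltransferases, averaged 72.2 CPM in the KO-labelled libraries, 103 CPM in the 4OHT control and 79.2 CPM in the EtOH control. It was called against the 4OHT control (log2 fold change -0.51, edgeR adjusted p = 3.1e-06) and between the controls (0.37, edgeR adjusted p = 0.00019), and not against the EtOH control (-0.13, edgeR adjusted p = 0.086; 0.011 with the replicate block).

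Of 11 genes of enzymes that pass electrons to ubiquinone, 9 were tested, and 5 fell and 1 rose against the EtOH control. Among all genes tested, 14.2% were called lower and 13% higher in that comparison. Sqor and Chdh, with at most 5 and 12 counts in any library, did not pass the filter. Dhodh, the ubiquinone-linked enzyme of pyrimidine synthesis, had 17.0, 18.5 and 18.7 CPM in the KO-labelled libraries, 43.5, 49.6 and 49.1 CPM in the 4OHT control and 35.1, 38.9 and 39.2 CPM in the EtOH control. The 3 groups did not overlap, with the KO-labelled libraries lowest and the 4OHT control highest. The log2 fold change was -1.06 ± 0.08 (SE; edgeR adjusted p = 4.7e-08) against the EtOH control, a 2.09-fold fall, and -1.39 ± 0.08 (SE; edgeR adjusted p = 9.8e-10) against the 4OHT control. Gpd2, the mitochondrial glycerol phosphate dehydrogenase, fell to 89.7 ± 5.32 CPM in the KO-labelled libraries, against 134 ± 8.43 CPM in the 4OHT control and 125 ± 2.01 CPM in the EtOH control (SD, n = 3 each; edgeR adjusted p = 1.6e-06 against the 4OHT control and 2.6e-05 against the EtOH control). Of the complex II subunits, Sdha and Sdhb fell against the EtOH control (log2 fold changes -0.19 and -0.25, edgeR adjusted p = 0.019 and 0.012), and Sdhc and Sdhd did not pass (-0.17 and -0.05, edgeR adjusted p = 0.057 and 0.59; Sdhc passed with the replicate block at 0.0018). Prodh, the proline dehydrogenase, fell by 0.27 log2 units (edgeR adjusted p = 0.046). Etfdh, which links the electron transfer flavoprotein to ubiquinone, was the gene that rose, with 24.9 ± 1.27 CPM in the KO-labelled libraries, 22.2 ± 0.571 CPM in the 4OHT control and 18.3 ± 1.03 CPM in the EtOH control (SD, n = 3 each; log2 fold change against the EtOH control 0.45, edgeR adjusted p = 0.00052). It was also higher in the 4OHT control than in the EtOH control (0.28, edgeR adjusted p = 0.018), and its value for the KO-labelled libraries against the 4OHT control was 0.16 (edgeR adjusted p = 0.099; 0.046 with the replicate block). Of the 9 tested genes, 4 fell against the 4OHT control (Dhodh, Gpd2, Prodh and Sdha) and none rose. Among all genes tested, 19.8% were called lower and 19.1% higher there. Sdhb had a log2 fold change of -0.07 against the 4OHT control (edgeR adjusted p = 0.42). Without EtOH control replicate 3, 3 of these genes were called against the EtOH control instead of 6. Over all genes, 3453 were then called in that comparison in place of 4417.

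**Figure D5:**
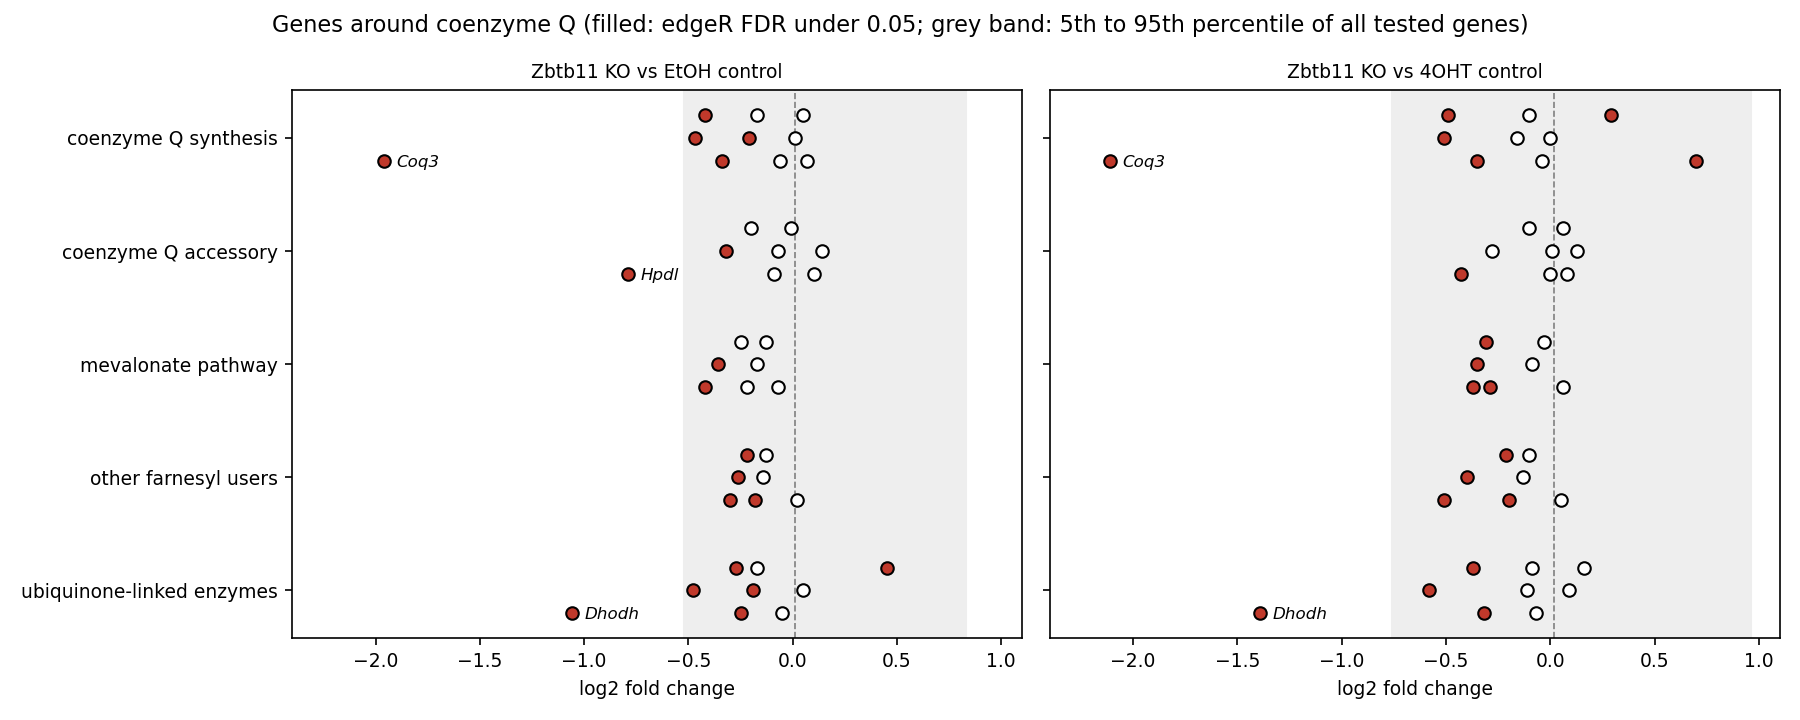
Log2 fold change (x axis) of the coenzyme Q synthesis genes and the tested genes of 4 neighbouring lists (y axis) for the KO-labelled libraries against each control; filled points have an edgeR adjusted p under 0.05, the dashed line is the median of all tested genes and the grey band their 5th to 95th percentile. Coq3 and Dhodh lie outside the band in both panels, Hpdl lies outside it against the EtOH control, and the other genes lie inside it.

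The medians of the lists can be read beside those of all genes tested. Against the EtOH control they were -0.08 for the accessory genes, -0.22 for the mevalonate genes, -0.18 for the farnesyl branches and -0.19 for the ubiquinone-linked enzymes, beside 0.01 for all genes. Against the 4OHT control they were 0.01, -0.29, -0.20 and -0.11 in the same order, beside 0.02 for all genes. The range from the 5th to the 95th percentile of all genes lay between -0.52 and 0.83 against the EtOH control and between -0.76 and 0.96 against the 4OHT control. Pdss1, Pdss2, Coq5 and Coq9 were therefore inside that range in both comparisons, and Coq3 was the single gene of the 10 outside it.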

How the data were processed

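The genes and lists were chosen with earlier results of these data known. Each library has 1 deposited file of raw counts for every gene, with 5 closing rows that name no gene and were left out of totals and tests, though the share of reads in no feature is given in the report. The submitters' processing notes name cutadapt, STAR, HTSeq and edgeR, the build mm9, and Bowtie 1.1.2, MACS2 and DiffBind, without roles. Directional libraries were made, per the labels' protocols; whether counting used strand is not stated in the sources used here. Of 37310 gene rows, 32620 had a symbol in GENCODE M21, which served for names, exon lengths and overlaps.

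Tests were run in R 4.3.3 with edgeR 4.0.16 and limma 3.58.1, as quasi-likelihood F tests after a robust glmQLFit with TMM scaling, filterByExpr by group and 1 fit of all 9 libraries, leaving 6 residual degrees of freedom. P-values were adjusted by Benjamini-Hochberg over 16224 genes, and called under 0.05; "rose" and "fell" refer to calls. CPM use TMM-scaled totals of the tested genes. The fit was tested on simulated counts. The named genes were all 10 genes of the pathway, the genes of 4 neighbouring lists (1 gene is not reported here), Zbtb11, and the 3 genes most like the member with the smallest p. No 2 libraries of a group were duplicates. Alternatives were DESeq2 1.42.0, RLE size factors, library totals without TMM, other filters, only the 2 groups compared, the replicate number as a block, and each library left out in turn. In a check of pairing, the deviations from group means correlated at 0.11 to 0.31 in all 9 pairs of libraries with the same replicate number. In the 18 pairs with different numbers they correlated at -0.23 to -0.02. Deviations cancel within each group, so the 18 values are tied to the 9 and are not separate evidence. Libraries with the same number thus varied together, and the labels do not say what they share. The main fit did not use this pairing. Intervals are at 95%.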

Additional observations from a re-analysis of the deposited data

How the results depend on the processing

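Of 30 values (10 genes in 3 comparisons), 16 kept their direction and their side of the threshold under all 16 alternatives, among them Coq3, Pdss1 and Pdss2 against each control. For Coq3 the log2 fold change stayed within -2.07 to -1.89 against the EtOH control and -2.22 to -2.03 against the 4OHT control. The depth leaves Coq3 with 62 to 91 counts per KO-labelled library. Counts of calls moved more. With the replicate block, 6936 of all genes were called for the KO-labelled libraries against the EtOH control in place of 4417, and 5323 for the 4OHT control against the EtOH control in place of 2987; the mevalonate count became 6 in place of 2, and 3 of the 10 genes were called between the controls in place of 1. For genes whose values are printed in the report, many of the calls that the block changed are given there, but not all. Between the controls, Sdha was 1 of those not given (edgeR adjusted p = 0.14, and 0.0087 with the block). With 1 library left out, the calls over all genes between the controls ran from 1974 (without EtOH control replicate 2) to 3069. For the KO-labelled libraries against the EtOH control, the calls over all genes ran from 3067 to 4559. In that comparison the calls ran from 3 to 5 among the 10 genes. They ran from 1 to 4 among the mevalonate genes and from 3 to 7 among the ubiquinone-linked enzymes. Library totals without TMM gave 3038 genes higher and 1527 lower against the EtOH control, beside 2110 and 2307 with TMM, and 4215 higher and 2328 lower against the 4OHT control, beside 3103 and 3216.

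Changes of sign occurred in values that no setting called. With library totals Coq4 became 0.01 against the EtOH control, Coq5 0.04 and Coq7 0.08 against the 4OHT control; Coq7 was 0.01 against the 4OHT control with the filter of at least 1 CPM, and -0.01 with DESeq2 and 0.00 with RLE size factors against the EtOH control. With 1 library left out, values against the EtOH control ran from -0.22 to 0.02 for Coq4, from -0.05 to 0.12 for Coq6, from -0.04 to 0.05 for Coq7 and from -0.05 to 0.12 for Coq8a; those against the 4OHT control ran from -0.08 to 0.00 for Coq5 and from -0.04 to 0.03 for Coq7; and Coq7 between the controls ran from -0.03 to 0.05. The cause of these changes was not tested.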
